A study of Mus musculus with 6 samples.

Results

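The genes described here are 10 transcription factors of the Müllerian duct and of the uterine glands: Foxa2, Sox17, Pax8, Pax2, Emx2, Lhx1, Klf5, Tfap2c, Msx1 and Sox9. They were taken by symbol from a table of raw read counts, in which 10 of 56884 genes are these factors, and each was found under 1 Ensembl identifier. Whole ectopic lesions of a mouse model of endometriosis were sequenced as mRNA, with 3 control (WT) lesions and 3 Dnmt3a knockout (KO) lesions and 1 library per lesion. Libraries held between 45370342 and 57239184 counts.

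Donors of the WT tissue were Dnmt3a f/f females, which carry the floxed gene and no Cre. Donors of the KO tissue were Dnmt3a f/f:PR-Cre/+ females, in which Cre is made in cells that express the progesterone receptor, so that Dnmt3a is deleted in those cells and not in others. All donors had received estradiol. Uterine pieces of either genotype were placed in the abdomen of wild-type recipients of the same strain that carried an estrogen pellet, and the labels give 4 weeks as the time for all 6 lesions. Vessels, immune cells and other tissue that the host adds to a lesion therefore have intact Dnmt3a in both groups. Each KO lesion had less Dnmt3a mRNA than each WT lesion (33.3 ± 2.92 against 49.4 ± 4.82 CPM, SD, n = 3 each). Here and below, CPM is the count per 1000000 counts of a library after TMM scaling, and a log2 fold change is KO minus WT from edgeR. For Dnmt3a it was -0.57 (SE 0.14, edgeR quasi-likelihood adjusted p = 0.321).

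The Müllerian ducts are the embryonic tubes from which the oviducts, the uterus and the upper vagina form. PAX2, PAX8, EMX2 and LHX1 act early, when the duct epithelium is laid down, and PAX8 and EMX2 are still made in the adult uterine epithelium. FOXA2 is the classical factor of uterine glands, SOX17 is made in glands and luminal epithelium, and SOX9, KLF5, MSX1 and TFAP2C are factors of epithelial growth, of progenitor cells or of the receptive uterus. None of them belongs to the uterus alone: PAX2, PAX8 and LHX1 are also kidney factors, SOX17 is also made in arterial endothelium, and MSX1 in mesenchyme.

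DNMT3A is a de novo DNA methyltransferase that adds methyl groups to cytosine, mostly where a C is followed by a G (CpG). The number of CpG sites before the start of a gene is for that reason given for the 6 factors with a promoter window in RefSeq on GRCm38.p6 (Pax8, Emx2, Pax2, Msx1, Lhx1 and Foxa2), although methylation itself was not measured in these lesions. A window was 250 bases ending just before an annotated start, and the median over 32851 such windows of 27025 genes was 6 CpG, with an upper quartile of 16. The 4 windows below are shown as 2 examples at the median and 2 above the upper quartile, 5′ to 3′ on the strand of the gene, with each CpG in capitals. Pax8 (chr2:24475600-24475849, minus strand) and Foxa2 (chr2:148046970-148047219, minus strand) held 6 CpG each. Msx1 (chr5:37824586-37824835, minus strand) and the window of Pax2 that is shown (chr19:44755502-44755751, plus strand) held 20 each, and 17.9% of windows held at least as many.
Pax8: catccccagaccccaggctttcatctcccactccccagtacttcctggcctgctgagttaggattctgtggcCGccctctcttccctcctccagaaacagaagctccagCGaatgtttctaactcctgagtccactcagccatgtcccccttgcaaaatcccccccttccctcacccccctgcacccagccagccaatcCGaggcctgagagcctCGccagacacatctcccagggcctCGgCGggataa
Foxa2: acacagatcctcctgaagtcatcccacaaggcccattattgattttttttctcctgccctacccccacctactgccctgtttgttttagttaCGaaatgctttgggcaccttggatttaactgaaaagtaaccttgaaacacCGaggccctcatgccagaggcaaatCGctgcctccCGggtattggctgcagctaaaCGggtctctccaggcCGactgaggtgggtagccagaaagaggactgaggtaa
Msx1: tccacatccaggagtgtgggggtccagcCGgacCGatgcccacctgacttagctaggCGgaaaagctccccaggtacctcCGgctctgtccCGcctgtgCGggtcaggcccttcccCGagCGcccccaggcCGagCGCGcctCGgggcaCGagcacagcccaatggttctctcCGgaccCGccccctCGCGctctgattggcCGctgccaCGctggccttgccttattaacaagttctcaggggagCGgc
Pax2: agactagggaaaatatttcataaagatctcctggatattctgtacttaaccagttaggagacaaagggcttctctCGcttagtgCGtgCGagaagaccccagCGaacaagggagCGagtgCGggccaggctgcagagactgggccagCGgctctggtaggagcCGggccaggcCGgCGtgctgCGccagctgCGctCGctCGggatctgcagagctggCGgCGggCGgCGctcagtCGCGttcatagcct

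Among the windows that are not printed, Emx2 had 24 CpG (12% of windows had at least as many) and Lhx1 had 26 (9.59%). Pax2 had 2 other annotated starts, with 5 and 25 CpG, and Foxa2 also had 2 others, with 13 and 20. The windows were searched on both strands for the letters TGTTTAC (forkhead factors), ACAATG (SOX factors), TAATTA (homeodomain factors) and GCCNNNGGC (AP-2 factors, the family of TFAP2C), which occur in 3.17%, 10.7%, 4.84% and 13.7% of all windows. Only the AP-2 letters were found, with 1 match in the Pax2 window above, 1 in the Foxa2 window above and 1 in the Foxa2 window with 20 CpG.

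Of the 10 factors, 9 had enough counts to be tested and 7 reached at least 1 CPM in every lesion (Sox17, Pax8, Pax2, Emx2, Klf5, Msx1 and Sox9). The log2 fold change was positive for 8 of the 9, with a median of 0.76 against 0.01 for all 18177 genes tested. No factor passed the threshold. At an unadjusted p under 0.05 with a log2 fold change above 1, the count was 0 of 9 factors, where 3.1% of all genes tested were called higher. In the other direction it was also 0, with 5.85% of all genes called lower. After Benjamini-Hochberg adjustment over all genes, 0.0055% were called, which is 1 gene, Kcnj2, and none of the factors, whose edgeR adjusted p ran from 0.35 to 0.859. The number of factors with an unadjusted p under 0.05 was also 0 in edgeR, while DESeq2 and limma voom each placed Pax8 and Pax2 past the unadjusted threshold and neither past the adjusted one. DESeq2 called 2.82% and limma voom 4.7% of their tested genes higher at that threshold. The groups overlapped for all 10 factors, whereas they did not overlap for 19.4% of all genes tested.

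What the 7 well-detected factors had in common was their order over the lesions. In all 7 the level in KO lesions 1 and 2 was above that in every WT lesion, and in all 7 KO lesion 3 lay within or below the WT range. The share of all genes with this order was not counted. WT lesion 2 was the lowest of all lesions for 6 of the 7, with Klf5, which was lowest in KO lesion 3, as the exception. KO lesion 3 was below WT lesions 1 and 3 for 5 of them.

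**Figure D1:**
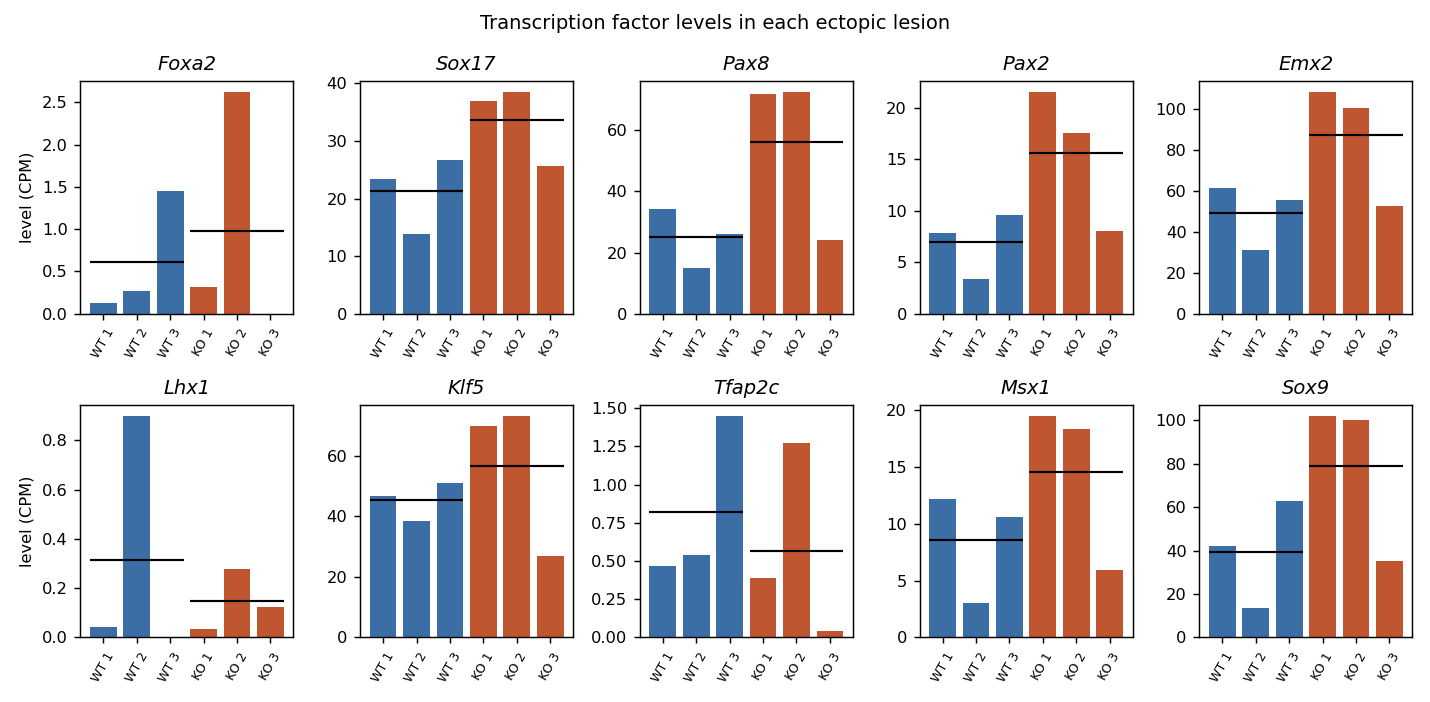
Level of each of the 10 transcription factors (y axis, CPM, separate scale per gene) in the 6 ectopic lesions (x axis), with WT bars in blue, KO bars in orange and a line at each group mean. For the 7 factors above 1 CPM in all lesions, KO 1 and KO 2 exceed every WT lesion and KO 3 does not.

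Pax8, a paired-box factor of the Müllerian, thyroid and kidney epithelium, lies on chromosome 2 from 24420560 to 24475599 of GRCm38. Its level was 34.2, 14.9 and 26.2 CPM in the WT lesions and 71.8, 72.4 and 24.1 CPM in the KO lesions. KO lesions 1 and 2 were nearly equal and stood far above the rest, and KO lesion 3 lay between WT lesions 2 and 3. The log2 fold change was 1.16 (SE 0.50, edgeR adjusted p = 0.35, exact permutation p = 0.3 for log2 CPM). With 3 lesions in each group the exact test cannot give less than 0.1.

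Pax2, the paralog that acts beside Pax8 in the forming duct and kidney, lies on chromosome 19 from 44756045 to 44837871. It was at 7.86, 3.38 and 9.57 CPM in WT against 21.5, 17.5 and 7.98 CPM in KO. KO lesion 3 was between WT lesions 1 and 3, so that the groups overlapped here too. Its log2 fold change of 1.17 (SE 0.51, edgeR adjusted p = 0.351) was close to that of Pax8. The ratio of Pax2 to Pax8 in CPM was 0.274 ± 0.0789 in WT and 0.291 ± 0.0457 in KO (SD, n = 3 each), and the groups overlapped (exact permutation p = 0.8).

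Emx2, a homeobox factor without which the Müllerian duct does not form, lies on chromosome 19 from 59458372 to 59465357. Its level was 61.3, 31.2 and 55.2 CPM in the WT lesions against 108, 100.3 and 52.6 CPM in the KO lesions. Here KO lesion 3 was above WT lesion 2 alone. Its log2 fold change was 0.82 (SE 0.37, edgeR adjusted p = 0.354). Emx2os, an RNA transcribed from the opposite strand (chromosome 19, 59425104 to 59458635) whose span overlaps the start of Emx2, had 11.7, 7.54 and 12.8 CPM in the WT lesions against 20, 18.9 and 12.7 CPM in the KO lesions. Its log2 fold change was 0.69 (SE 0.28, unadjusted p = 0.0479, edgeR adjusted p = 0.336). The kit marks strand, but the strand setting of the counting is not given in the sources used here, so reads of the overlapping pair may not be told apart.

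Lhx1, a LIM homeobox factor of the early duct (chromosome 11, 84518284 to 84525535), was hardly detected and was not tested. It had 2, 40 and 0 counts in WT and 2, 14 and 6 counts in KO. The 0 in WT lesion 3 allows up to 0.158 CPM by the upper end of a 95% exact Poisson interval, which covers counting error only. Only WT lesion 2 came near 1 CPM, at 0.9. Aatf, the gene next to Lhx1 on the same strand, was between 14.4 and 21.8 CPM in the 6 lesions.

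Foxa2, the factor that glands need to form and to secrete (chromosome 2, 148042877 to 148046969), was low in most lesions. Its counts were 6, 12 and 68 in WT and 18, 132 and 0 in KO, or 0.128, 0.27 and 1.45 CPM against 0.316, 2.62 and 0 CPM. One lesion of each genotype, WT lesion 3 and KO lesion 2, held most of the counts. The 0 in KO lesion 3 allows up to 0.154 CPM, while KO lesion 2 has an interval of 2.03 to 3.34 CPM. Both are from the 95% exact Poisson interval on the halved count, for counting error only. The log2 fold change of 0.66 (SE 1.63, edgeR adjusted p = 0.859) has an error larger than itself. It was -1.92 without KO lesion 2 and 2.26 without WT lesion 3.

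Sox17, a gland and luminal factor, lies on chromosome 1 from 4490931 to 4497354. Its values were 23.4, 13.9 and 26.7 CPM in WT against 36.9, 38.5 and 25.7 CPM in KO. KO lesion 3 was just below WT lesion 3, and the other KO lesions were above all WT lesions. The log2 fold change was 0.66 (SE 0.29, edgeR adjusted p = 0.354), and the spread over lesions was narrow, at 2.77-fold from the lowest to the highest. Since Sox17 is also made in arterial endothelium, the 7 endothelial markers were set beside it. In 6 of the 7, KO lesions 1 and 2 were below all other lesions, whereas for Sox17 they were the highest. These markers are not particular to arteries, and the part of endothelium in the Sox17 values was not tested.

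Sox9, a factor of epithelial progenitors and of glands, had the largest spread of the well-detected factors, with a 7.42-fold range. It was at 41.9, 13.7 and 62.9 CPM in WT against 102, 100.3 and 35 CPM in KO. KO lesion 3 was below WT lesions 1 and 3. Its log2 fold change was 1.00 (SE 0.64, edgeR adjusted p = 0.461). Sox9 lies on chromosome 11 from 112782224 to 112787760.

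Klf5, a zinc-finger factor that keeps epithelia proliferating and is needed for implantation (chromosome 14, 99298691 to 99315036), had the smallest difference among these 7. Its levels were 46.7, 38.4 and 51.1 CPM in WT against 69.8, 73.1 and 27 CPM in KO. KO lesion 3 was the lowest of all 6 lesions. Its log2 fold change was 0.32 (SE 0.38, edgeR adjusted p = 0.693).

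Msx1, a homeobox factor of the receptive uterus (chromosome 5, 37820485 to 37824583), ranged over 12.2, 3.06 and 10.6 CPM in WT, against 19.5, 18.3 and 5.92 CPM in KO. It ranged 6.35-fold over the lesions, and its log2 fold change was 0.76 (SE 0.64, edgeR adjusted p = 0.573). Tfap2c, an AP-2 factor of trophoblast and of several glandular epithelia (chromosome 2, 172549593 to 172558622), was near the lower limit, at 0.47, 0.54 and 1.45 CPM in WT against 0.386, 1.27 and 0.0417 CPM in KO. The last value is 2 counts. Of the tested factors, Tfap2c alone had a negative log2 fold change (-0.53, SE 1.06, edgeR adjusted p = 0.82), and this sign changed without WT lesion 3 (0.14) or without KO lesion 3 (0.01).

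Per kilobase of exon, Emx2 had the highest mean level over the 6 lesions at 22.7 CPM per kb. It was followed by Sox9 (14.3), Klf5 (9.81), Pax8 (6.7), Sox17 (5.77), Msx1 (3.74), Pax2 (2.09), Foxa2 (0.337), Tfap2c (0.189) and Lhx1 (0.0565), all as mean CPM per kb. The ranges over lesions of each pair of neighbours in this order overlapped. Emx2 ran from 10.4 to 36.1 CPM per kb and Sox9 from 3.32 to 24.6. At the other end of the well-detected factors, Pax2 ran from 0.624 to 3.97 CPM per kb and Foxa2 reached 1.11. The KO means had the same order, while in the WT means Sox17 (4.47) was above Pax8 (4.14). Duct factors (Emx2, Pax8, Pax2) and gland or growth factors (Sox9, Klf5, Sox17) were therefore mixed in the order rather than separated.

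**Figure D2:**
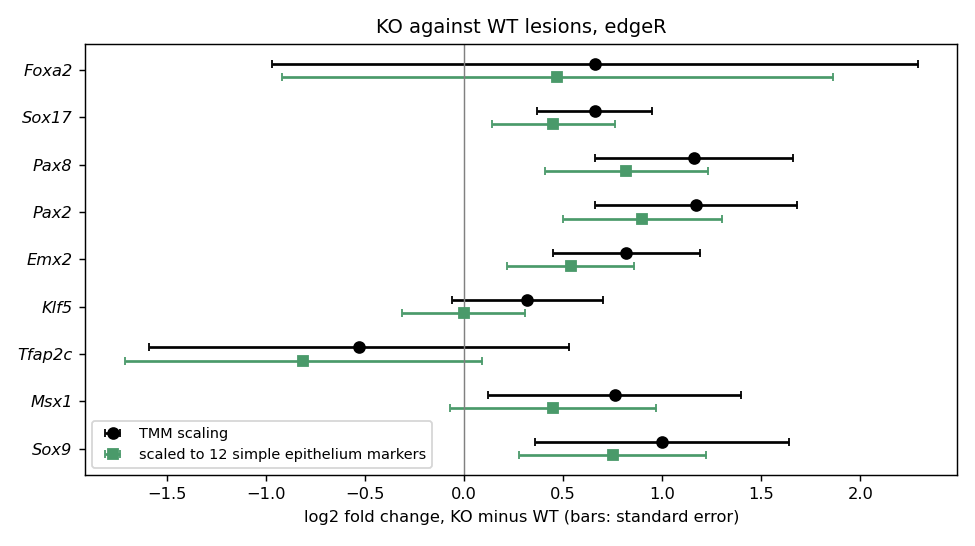
Log2 fold change of the 9 tested factors (x axis, KO minus WT, bars are the standard error) with TMM scaling (black circles) and with libraries scaled to 12 simple epithelium markers (green squares). No point passed the adjusted threshold, and with the epithelial scaling Klf5 stood at 0.00 while Pax2 stood at 0.90.

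Since these factors are made in epithelium, epithelial transcripts were measured beside them. In whole lesions fewer epithelial cells and less RNA per epithelial cell cannot be told apart. The mean log2 CPM of 12 simple epithelium markers (Epcam, Cdh1, Krt8, Krt18, Krt19, Krt7, Cldn3, Cldn4, Cldn7, Esrp1, Elf3 and Grhl2) was 7.39, 7.28 and 7.82 in WT and 8.08, 7.86 and 7.22 in KO. The difference of 0.23 had an exact permutation p of 0.6. These markers followed the same order as the factors in part. WT lesion 2 was lowest for 7 of the 12, and KO lesions 1 and 2 were above all WT lesions for 8 of the 12. In the unadjusted test 0 of the 12 markers was higher and 1 was lower, Cldn4 (log2 fold change -1.07, SE 0.40, edgeR adjusted p = 0.332). The summed level of the 12 was between 2554 CPM in KO lesion 3 and 4843 CPM in KO lesion 1.

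The level of each factor was therefore also taken relative to these markers in the same lesion, as its log2 CPM minus their mean. On this scale Pax2 was the only factor whose groups did not overlap, with -4.40, -5.51 and -4.56 in WT and -3.66, -3.73 and -4.22 in KO. The difference was 0.95 (exact permutation p = 0.1, the smallest possible), and 9.03% of all genes tested also had no overlap on this scale. For Sox9 the difference was 0.87, for Pax8 0.85, for Emx2 and Msx1 0.58 each, and for Sox17 0.46, all with overlapping groups. For Klf5 it was -0.03 (-2.00 ± 0.15 in WT and -2.03 ± 0.40 in KO, SD, n = 3 each). When edgeR's libraries were scaled to the same markers, which shifts the median over all genes to -0.18, Pax2 was at 0.90 (SE 0.40, adjusted p = 0.571) and Pax8 at 0.82 (SE 0.41, adjusted p = 0.622). The 2 low factors that were tested had negative values relative to the markers, with differences of -1.31 for Tfap2c and -0.57 for Foxa2, and Lhx1 was at -0.12. In plain log2 CPM the difference was already -1.09 for Tfap2c and -0.34 for Foxa2. The sign for Foxa2 depended on the method, since edgeR with the libraries scaled to the markers gave 0.47 (SE 1.39), against -0.81 (SE 0.90) for Tfap2c. Without WT lesion 2 the difference in log2 CPM relative to the markers was 0.06 for Msx1, 0.35 for Sox9, 0.61 for Pax2, 0.39 for Emx2 and 0.29 for Sox17. That of Foxa2 was 0.17 without WT lesion 3, 0.71 without KO lesion 3 and most negative without KO lesion 2. With each lesion left out, Tfap2c stayed negative, while Lhx1 became positive without WT lesion 2 or KO lesion 1. With Epcam, Cdh1, Krt8 and Krt18 alone as the markers, the differences of Sox9, Pax8, Emx2, Msx1 and Sox17 were smaller.

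**Figure D3:**
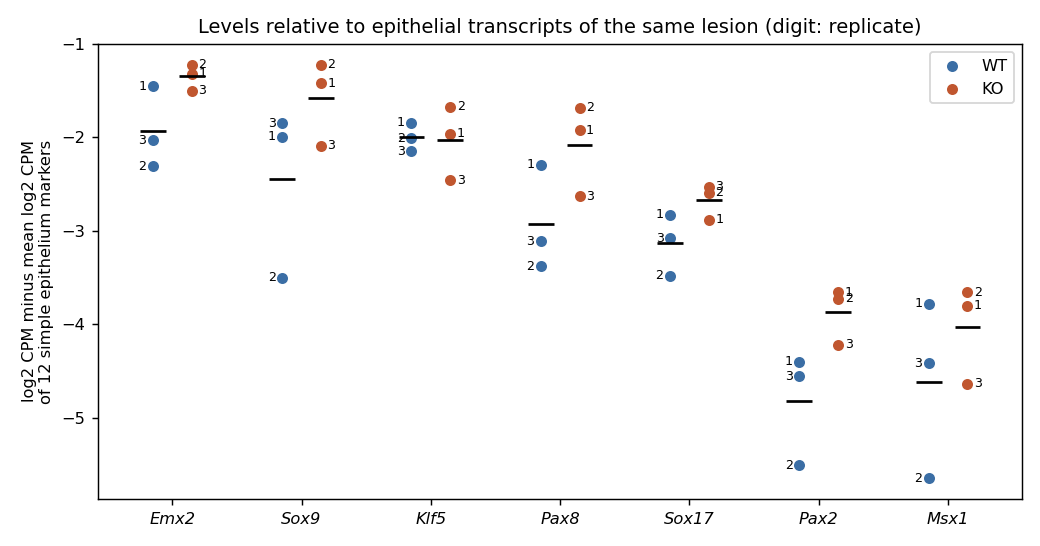
Level of the 7 well-detected factors relative to the epithelium (y axis, log2 CPM minus the mean log2 CPM of 12 simple epithelium markers of the same lesion) in WT (blue) and KO (orange) lesions, with the replicate number beside each point and a line at each mean. Only for Pax2 are all KO points above all WT points, and the Klf5 means nearly coincide.

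Klf5 was the factor nearest in profile to the epithelial markers, with a mean absolute difference of 0.19 on the log2 scale over the 6 lesions after each profile was centred. Sox17 (0.25), Emx2 (0.36) and Foxa2 (1.45) also had the simple epithelium as their nearest marker list. The kidney list was level with it for Emx2 (0.36) and almost so for Foxa2 (1.46). Foxa2 was close to neither, with a median distance of 1.63 to all genes. Because Klf5 was so close to the epithelium, and after its values were seen, the other 6 well-detected factors were divided by it. The ratio to Klf5 was higher in every KO lesion than in every WT lesion for Sox17, Pax8, Pax2, Emx2 and Sox9 (5 of 6). Over all genes, 6.35% had no overlap in this ratio. Klf5 alone among the 7 was lowest in KO lesion 3, so dividing by it raises the other factors in that lesion. These ratios are therefore a description and no test of the factors. For Pax8 the ratio was 0.733, 0.387 and 0.514 in WT and 1.03, 0.991 and 0.89 in KO. Sox9 had ratios of 0.898, 0.357 and 1.23 in WT against 1.46, 1.37 and 1.3 in KO. The margin for Sox17 was small, with 0.523 as the highest WT value and 0.527 as the lowest KO value. Msx1 overlapped. Of all 21 pairs of the 7 factors, the 5 with Klf5 were the ones without overlap, and all 5 share the Klf5 values as their denominator.

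For the other factors the nearest marker lists were less telling. The kidney list was nearest to Pax2 (0.35), Pax8 (0.47) and Sox9 (0.40), but its summed level was at most 2.22 CPM and only 1 of its 3 genes could be tested. Msx1 was nearest to smooth muscle (0.50), with the kidney list at 0.51 and the simple epithelium at 0.58. Tfap2c was nearest to the intestinal epithelium (0.88), with the simple epithelium at 1.01. With a prior count of 0.5 in place of 2, Pax8 was nearest to smooth muscle (0.53) and then to the simple epithelium (0.54).

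The genes most like each factor over the 6 lesions were named by the same distance, out of 15045 other genes with a symbol and a mean of at least 1 CPM. For Pax8 they were Lig3 (0.07), Cfi and Rapgefl1 (0.09 each). For Pax2 they were Sall1 (0.07), Efna4 and Bcat1 (0.09 each). Emx2 was closest to Ndufa11 (0.04), Gtf2f2 and Cd24a (0.06 each), and Sox17 to Lrig1 and Emx2os (0.06 each) and to E330013P04Rik (0.07). Klf5 had Lrrc8e (0.10), Hsd17b2 and Unc13b (0.11 each) as neighbours, Sox9 had Tpd52l1 (0.11), Gfra1 (0.13) and Bspry (0.15), and Msx1 had Slc28a3 (0.11), Papln (0.13) and Smpd3 (0.16). The median distance of all genes was 0.44 for Sox17. Foxa2, whose counts were few, was no closer than 0.94 to any gene (Fbxo16), with Pifo at 0.96 and Vwa3b at 0.98. With a prior count of 0.5 its nearest genes were 9530014B07Rik, Kcne3 and Vwa3b (1.17 to 1.29). Tfap2c was nearest to Plet1os (0.60), Junos (0.63) and Tmc7 (0.65).

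**Figure D4:**
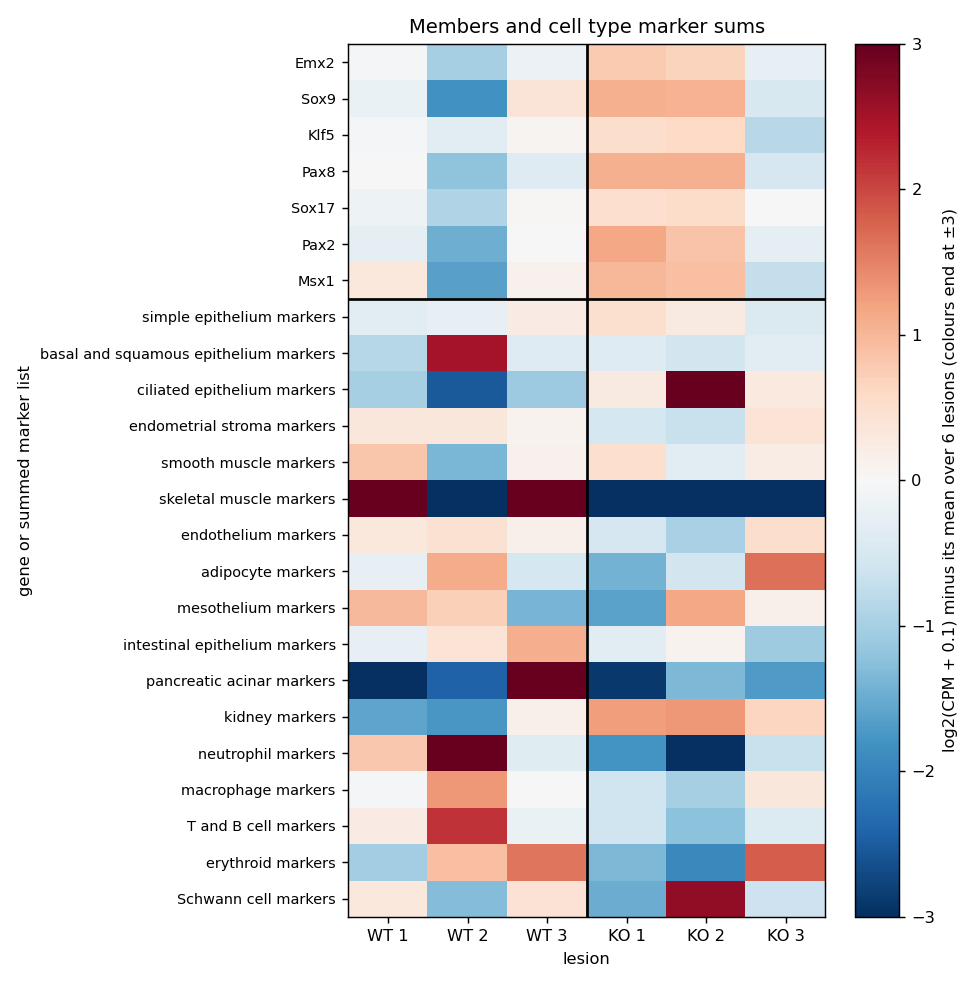
Colour map of log2(CPM + 0.1), centred on its mean over the 6 lesions (columns), for the 7 well-detected factors and for the summed level of each cell type marker list (rows), with red above and blue below the mean. The factors and the simple epithelium are lowest in WT 2 or KO 3, while skeletal muscle is high in WT 1 and WT 3 and neutrophil markers are high in WT 2.

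The lesions differed in the host tissue they contained. Skeletal muscle markers summed to 25284 CPM in WT lesion 1 and 26978 CPM in WT lesion 3, and to at most 14 CPM in the other 4 lesions. WT lesion 3 also held pancreatic acinar markers (3662 CPM), WT lesion 2 neutrophil markers (9706 CPM, against 30.3 to 472 CPM elsewhere) and KO lesion 3 adipocyte markers (3280 CPM, against 391 to 2269 CPM). WT lesion 2, the lowest lesion for 6 of the factors, therefore was also the one with the most neutrophil transcripts, and their part in the low levels was not tested. With WT lesions 1 and 3 left out, Sox17, Pax2, Emx2 and Sox9 passed the unadjusted threshold for higher genes, as did 3.15% of all genes tested, and none passed the adjusted one. The only control was then WT lesion 2, already seen as the lowest lesion for these factors, and it was assumed to vary like the KO lesions.

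Several genes around these factors did pass the unadjusted threshold, and none of them passed the adjusted one. Their counts are read against the 3.1% and 5.85% given above. Among 16 genes of duct formation and patterning, 2 were higher and 0 lower, with a median log2 fold change of 0.36. Wnt5a, a ligand that patterns the uterine mesenchyme, was at 127, 78.2 and 158 CPM in WT against 406, 377 and 189 CPM in KO (log2 fold change 1.42, SE 0.39, edgeR adjusted p = 0.321). Hoxa11, a homeobox gene of the uterine stroma, was at 14.4 ± 3.62 CPM in WT and 30 ± 10.1 CPM in KO (SD, n = 3 each, log2 fold change 1.05). For both, all KO lesions were above all WT lesions. Of 6 endometrial stroma markers, Hoxa11 and Hand2 among them, 4 had a positive log2 fold change. Pdgfra (-0.86) and Dcn (-0.43) had a negative one. Of 6 smooth muscle markers, 5 were positive and 1 was negative, with a median of 0.85, and 2 passed the unadjusted threshold as higher. The part of stroma and smooth muscle in the levels of Wnt5a, Hoxa11 and Hand2 was not tested. The number of higher duct genes was 1 without WT lesion 1 or KO lesion 1 and with epithelial scaling. That of lower duct genes was 1 with DESeq2, with limma voom and without WT lesion 1 or KO lesion 3. The median of the 16 ran from 0.08 (without KO lesion 2) to 0.51 (without KO lesion 3) and was 0.19 with epithelial scaling.

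Among 10 gland formation signals, 3 were higher and 1 was lower, with a median of 0.37. Fgfr2, the epithelial receptor for fibroblast growth factors, was at 27.3, 19.9 and 32.7 CPM in WT against 81.4, 83.4 and 52 CPM in KO, without overlap (log2 fold change 1.44, SE 0.27, unadjusted p = 0.00167, edgeR adjusted p = 0.321). Lgr4, a receptor for R-spondins, had the order of the factors themselves, with 48.6, 23.5 and 59.4 CPM in WT against 122, 145 and 53.9 CPM in KO (log2 fold change 1.29, SE 0.48). Wnt16 was carried by KO lesions 1 and 2, at 12 and 33.3 CPM against at most 4.7 CPM elsewhere (log2 fold change 2.41, SE 0.95). Lef1, a nuclear partner of β-catenin, was the lower one, at 1.3 ± 0.778 CPM in WT and 0.38 ± 0.117 CPM in KO (SD, n = 3 each). Ctnnb1, which codes for β-catenin itself, was at 1135 CPM on average and did not pass (log2 fold change 0.39, SE 0.24). The number of higher genes was 1 without WT lesion 1 or 2 or without KO lesion 1 or 2. That of lower genes was 0 without WT lesion 2 or KO lesion 1 and 3 without KO lesion 2. The median of the list ran from 0.22 (without WT lesion 2) to 0.60 (without KO lesion 3) and was 0.11 with epithelial scaling.

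Of the 9 signalling partners between epithelium and stroma, 8 were tested, 2 of these were higher and 0 lower, and the median was 0.18. Esr1, the estrogen receptor, was at 191, 93.2 and 199.7 CPM in WT against 387, 445 and 226 CPM in KO (log2 fold change 1.13, SE 0.39, edgeR adjusted p = 0.328). Hand2, a stromal factor that restrains epithelial growth under progesterone, was at 2.51 ± 0.402 CPM in WT and 5.1 ± 0.878 CPM in KO (SD, n = 3 each, log2 fold change 1.02). Neither overlapped between the groups. Pgr, whose promoter drives the Cre, had a log2 fold change of 0.37 (SE 0.30). Ihh, a ligand of the epithelium, was detected near 1.95 CPM in KO lesion 2 and at no more than 0.14 CPM in the others. The number of higher genes was 1 without WT lesion 1 or 2 or KO lesion 2, and 0 without KO lesion 1 or with epithelial scaling. The median of the list was 0.08 without WT lesion 1, 0.43 without WT lesion 2 and 0.52 with limma voom.

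Of 5 products of uterine glands, only Lif was abundant enough to be tested. Lif, a cytokine of implantation that glands secrete but other cells make as well, was lower in every KO lesion, at 23.1, 12.5 and 25.5 CPM against 35.9, 43 and 47.8 CPM in WT (log2 fold change -1.05, SE 0.29, edgeR adjusted p = 0.321). It did not pass the unadjusted threshold without WT lesion 3 or without KO lesion 2. In its order Lif did not resemble the factors, since KO lesion 2, where Foxa2 was highest, had the least Lif. Prss29 and Cxcl15 were at 2.3 and 0.755 CPM in KO lesion 2 and at no more than 0.135 CPM in any other lesion. Spink1 was counted only in WT lesion 3, at 18.3 CPM, the lesion with the acinar markers.

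The paralogs that passed the unadjusted threshold were all lower in KO. Of 17 paralogs, 10 were tested, 0 were higher and 4 were lower, with a median log2 fold change of -0.59. Foxa1, the closest relative of Foxa2, was at 1.49, 11.4 and 2.01 CPM in WT against 0.175, 0.0397 and 1.13 CPM in KO (log2 fold change -3.48, SE 1.38, edgeR adjusted p = 0.334). Klf2, a relative of Klf5 made in endothelium and lymphocytes, reached 145 CPM in WT lesion 2 and was between 6.67 and 28.5 CPM elsewhere (log2 fold change -2.59). Pax5, the B cell relative of Pax2 and Pax8, also peaked in WT lesion 2, at 8.04 CPM (log2 fold change -3.47), as did the T and B cell markers, at 88.3 CPM in sum against 8.26 to 23.3 CPM. Sox10, a Schwann cell relative of Sox9, was at most 1.26 CPM in all lesions (log2 fold change -1.80). The abundant Klf4 and Sox7 had log2 fold changes of 0.47 and 0.56 and did not pass. The number of lower paralogs was 1 without WT lesion 2 or KO lesion 2 and 0 without KO lesion 1, and the part of the immune cells of WT lesion 2 in these values was not tested.

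**Figure D5:**
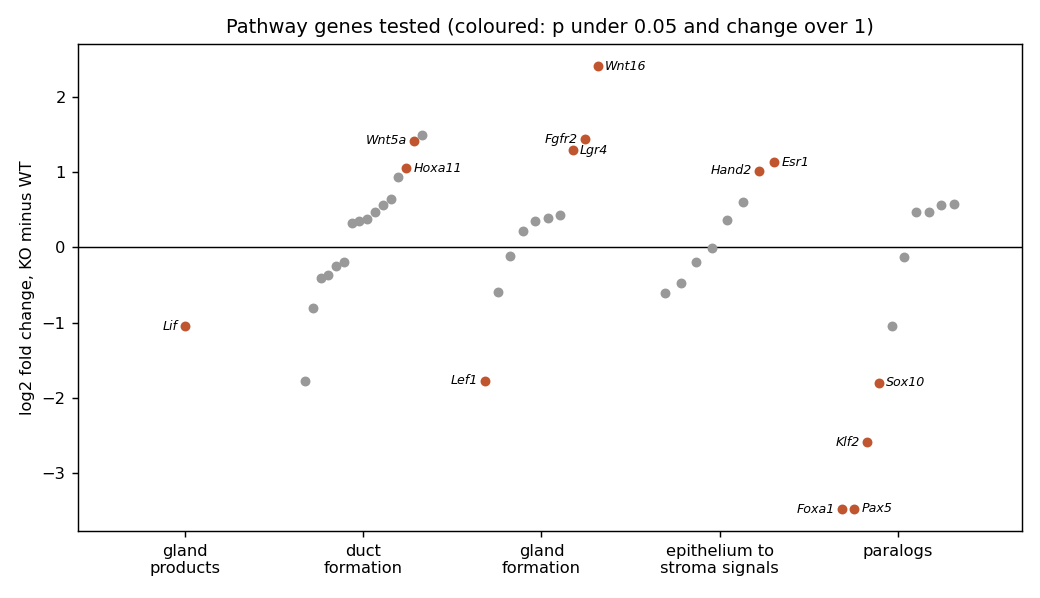
Log2 fold change (y axis, KO minus WT) of each tested gene in 5 lists of genes around the factors (x axis), with genes past the unadjusted threshold coloured and named. The named genes of duct and gland formation lie above 0 except Lef1, and those of the paralogs lie below 0.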

How the data were processed

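mRNA of whole ectopic lesions was sequenced from 3 WT and 3 KO donors, which are separate mice according to the paper. The authors deposited raw counts of reads per gene, made after trimming with Trimmomatic and counting with featureCounts per the labels. The paper names the Galaxy platform and its version. The versions of the single tools, the aligner, the annotation release and the strand setting are not given in the sources used here. The build is GRCm38 in the paper and GRCm39 in the labels. Of the counts from 1 to 20, between 89.2% and 90.6% per library were even, as when both reads of a pair are counted, so counting intervals were computed on halved counts and cover counting error only.

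Symbols, coordinates and exon lengths were taken from GENCODE M21 on GRCm38, where 51948 of 56884 identifiers were found without their version and 35 with it. Identifiers with no symbol held 3.04% to 3.56% of the counts. The fit was made with edgeR 4.0.16 (R 4.3.3) on the counts (filterByExpr, 18177 genes, TMM, quasi-likelihood test with genotype as the only term, Benjamini-Hochberg adjustment over all genes). The standard error of a log2 fold change is its size over the root of its F value. Log2 CPM has a prior count of 2. Permutation tests were exact and two-sided. The 10 factors and all gene lists were chosen with earlier results of these data known. Within lists, genes past the unadjusted threshold and the 2 most abundant were named, with up to 6 per direction, and the 3 nearest genes of each factor. A gene that this rule would name is not reported here. Gene lists were described by counts and medians only. The alternatives were DESeq2 1.42.0, limma 3.58.1 voom with quality weights, other scalings and filters, a replicate term, and each library left out in turn. The steps were tested on simulated data.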

Additional observations from a re-analysis of the deposited data

How the results depend on the processing

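The number of factors past the adjusted threshold was 0 in every alternative run, and the number lower at the unadjusted threshold was also 0 in each. The number higher, 0 as reported, was 2 with upper quartile scaling, DESeq2 and limma voom (Pax8 and Pax2 each time), 1 with no filter beyond 1 count (Pax8), 0 to 3 with each lesion left out (3 without KO lesion 3: Pax8, Pax2 and Emx2), and 4 without WT lesions 1 and 3. Log2 fold changes of Sox17, Pax8, Pax2, Emx2, Klf5, Msx1 and Sox9 were positive in every alternative, except that Klf5 was 0.00 with epithelial scaling. With each lesion left out they ran from 0.43 to 0.83 for Sox17, 0.89 to 1.52 for Pax8, 0.85 to 1.49 for Pax2, 0.58 to 1.08 for Emx2, 0.10 to 0.66 for Klf5, 0.36 to 1.14 for Msx1 and 0.59 to 1.48 for Sox9. The lowest value came without WT lesion 2, except for Klf5, which was lowest without KO lesion 2. Foxa2 ran from -1.92 to 2.26 and Tfap2c from -1.91 to 0.14 with each lesion left out, and Tfap2c was 0.04 without WT lesions 1 and 3.

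Over all genes, 564 were higher, and 855 were with limma voom and 280 to 1021 with each lesion left out. Of the 1064 lower genes, the number became 1652 with no filter beyond 1 count, 1839 with DESeq2, 1625 without WT lesions 1 and 3, and 551 to 1650 with each lesion left out. The 1 gene past the adjusted threshold became 1077 with DESeq2, 12 with limma voom, 0 with DESeq2 size factors in edgeR, upper quartile scaling, epithelial scaling or without WT lesions 1 and 3, and 0 to 398 with each lesion left out (398 without WT lesion 2). The cause of these shifts was not tested. Of the genes with an unadjusted p under 0.05, 1190 were higher and 1484 lower, against 1945 and 1179 with upper quartile scaling, which moves the median of all genes from 0.01 to 0.11. The median of the paralogs was 0.17 in place of -0.59 with at least 10 counts in every library, a filter that removes low genes. The median of the gland products, -1.05 for Lif alone, was 2.61 with no filter beyond 1 count, 1.70 with DESeq2 and 2.39 without WT lesions 1 and 3, where low genes of the list enter. Halved counts, epithelial scaling and leaving out WT lesions 1 and 3 were chosen after seeing the data, and halving changed no call among the factors, of which Foxa2 was then too low to be tested. Dnmt3a, at -0.58 with DESeq2, had an adjusted p of 0.0447 there.

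With a replicate block the counts were 372 higher, 573 lower and 0 adjusted. Lesions of the same number correlated at 0.032, -0.152 and -0.201 in their deviations from the group means. Those of unlike number ran from -0.15 to 0.228. These values gave no sign that the numbers pair the samples. Lhx1 had too few counts to be tested.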

Other observations

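KO lesion 2, the lesion with the most Foxa2, was also the one with ciliated epithelium. Foxj1, the master factor of ciliated cells, was at 66.8 CPM there and between 0.18 and 10.5 CPM elsewhere, and Dnah5, an axonemal dynein, was at 64.6 CPM against at most 0.458 CPM. Foxj1 was higher in all KO lesions than in all WT lesions (log2 fold change 4.49, SE 1.23, edgeR adjusted p = 0.321). Wt1, a factor of the urogenital ridge and of mesothelium, was highest in the same lesion at 62.8 CPM, against 12.7 to 26.8 CPM in the others. S100b was at 88.3 CPM there and at no more than 3.42 CPM elsewhere.

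WT lesion 2, where 6 of the 10 factors were lowest, had the highest level of 5 of 6 basal and squamous markers. Krt5 was at 99.2 CPM in that lesion and at no more than 0.25 CPM in the others, with Krt14 at 5.47 CPM against 0.596 to 2.79 CPM. Sprr1a, Trp63 and Krt6a were also highest there, at 108, 19.4 and 15.8 CPM, whereas Krt13 was lowest there at 0.81 CPM and highest in KO lesion 2 at 7.95 CPM. Gata3, a duct and squamous factor, was at 10.9 CPM there against 0.897 to 1.71 CPM, and Foxa1 was highest there as well. Lhx1, almost absent elsewhere, also had its highest level in that lesion. Which cells of the lesion carried these transcripts was not tested.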
